A study of Mus musculus with 12 samples.

Results

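The genes described here are 9 subunits of the integrins by which leukocytes adhere: Itgam, Itgax, Itgal, Itgb2, Itga4, Itga5, Itga6, Itgb1 and Itgb7. They were taken by name from the 55604 genes counted in each library, and each symbol matched 1 identifier. RNA was sequenced from macrophages that were grown from C57BL/6 mouse bone marrow with the growth factor M-CSF (20 ng/ml) and used on day 7. In the first group, macrophages were given corpses of STC1OE B16-F10 cells, a mouse melanoma line made to overexpress the secreted glycoprotein STC1. In the second they were given corpses of control B16-F10 cells, and in the third they were cultured alone. Macrophages and corpses were mixed at 1 to 5 for 20 h, and unbound corpses were then washed off. Each group had 4 libraries, which the series' design text calls independent experiments. The labels give neither the vector, the number of B16-F10 clones, the way the cells were killed nor whether experiments shared mice.

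Integrins are cell-surface dimers of an α and a β chain that join a cell to matrix or to other cells. The β2 chain (Itgb2) is found on leukocytes and pairs with αM (Itgam) to form Mac-1, also called complement receptor CR3, with αX (Itgax, or CD11c) to form CR4, and with αL (Itgal) to form LFA-1. The β1 chain (Itgb1) pairs with α4 (Itga4), α5 (Itga5) and α6 (Itga6), which bind VCAM-1 and fibronectin, fibronectin, and laminin. The β7 chain (Itgb7) pairs with α4 to bind the gut address molecule MAdCAM-1. On macrophages Mac-1 and CR4 bind complement-coated particles, and fibronectin and laminin receptors hold the cell to matrix.

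The genes of αL, αM and αX lie on chromosome 7 (GRCm38, plus strand): Itgal at 127296260 to 127335138, Itgam at 128062640 to 128118491 and Itgax, the next integrin gene downstream of Itgam, at 128129547 to 128150657. Itgb2 lies on chromosome 10 (77530252 to 77565708), Itga4 and Itga6 on chromosome 2 (79255426 to 79333123 and 71745616 to 71858416), Itgb1 on chromosome 8 (128685654 to 128733200), and Itga5 and Itgb7 on the minus strand of chromosome 15 (103344286 to 103366763 and 102215995 to 102231944). Of the 9 genes, 6 matched an entry in the RefSeq promoter table (GRCm38.p6); Itgal, Itgb2 and Itga6 did not. The 250 bases before the start are shown for the neighbours Itgam (chr7:128062390-128062639, plus strand) and Itgax (chr7:128129300-128129549, plus strand), which fell most with corpses, and for Itga5 (chr15:103366792-103367041, minus strand), which rose. Capitals mark the core GAGGAA or its reverse TTCCTC, which the myeloid factor PU.1 can bind, and the AP-1 sequence TGAGTCA or its reverse TGACTCA.
Itgam: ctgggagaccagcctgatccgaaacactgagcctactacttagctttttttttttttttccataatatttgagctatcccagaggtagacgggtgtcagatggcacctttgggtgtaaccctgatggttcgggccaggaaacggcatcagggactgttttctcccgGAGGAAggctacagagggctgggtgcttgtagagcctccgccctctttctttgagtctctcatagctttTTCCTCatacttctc
Itgax: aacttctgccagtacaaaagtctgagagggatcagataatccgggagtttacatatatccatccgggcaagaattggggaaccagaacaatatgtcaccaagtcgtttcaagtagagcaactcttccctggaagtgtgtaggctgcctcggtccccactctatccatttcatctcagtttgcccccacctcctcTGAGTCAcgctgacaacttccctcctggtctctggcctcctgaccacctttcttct
Itga5: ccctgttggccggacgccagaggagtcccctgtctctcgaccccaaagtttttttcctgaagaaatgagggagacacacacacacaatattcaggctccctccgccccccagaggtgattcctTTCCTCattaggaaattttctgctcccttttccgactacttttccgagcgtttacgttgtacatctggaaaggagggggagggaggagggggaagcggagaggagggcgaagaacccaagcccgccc
The Itgam window held 2 PU.1 cores, beginning 84 bases before the start on the plus strand and 15 bases before it on the minus strand. The Itgax window held no PU.1 core but 1 AP-1 sequence, 56 bases before the start. The Itga5 window held 1 PU.1 core, 127 bases before the start on the minus strand. Counting both strands, 23.3% of 32851 promoter windows of this length held the PU.1 core and 4.46% held the AP-1 sequence. These letter matches describe the windows and say nothing of binding.

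The libraries held 28488441 to 39981074 counts assigned to genes. Values are CPM, a gene's counts scaled to a common library depth with TMM factors, and are given as mean ± SD with n = 4 per group. Log2 fold changes carry their standard error, and adjusted p-values are from edgeR's quasi-likelihood test with Benjamini-Hochberg adjustment over 16406 genes, with a threshold of 0.05. All 9 integrins passed the filter on low counts, with at least 1169 counts in every library. The 8 macrophage markers, among them Adgre1 and Csf1r, were present at summed levels of 5642 to 5956 CPM in the STC1OE group, 5461 to 5594 CPM in the control corpse group and 5523 to 5582 CPM in macrophages alone. That near-level sum held changes both ways: against macrophages alone 4 markers rose and 3 fell with STC1OE corpses, and 4 rose and 4 fell with control corpses. Of all tested genes, 43.8% and 40.1% changed in these comparisons. Adgre1 (−0.30 and −0.22), Csf1r (−0.24 and −0.26) and the LPS co-receptor Cd14 (−1.40 and −1.27) fell, while the lysosomal protein gene Cd68 rose (0.70 and 0.48). Their part in the changes of the integrins was not tested. The 12 melanocyte markers summed to 8.18 to 10.2, 13.3 to 17.4 and 1.90 to 2.60 CPM in the same order, and 11 neutrophil markers to 84.9 to 91.5, 92.0 to 97.5 and 178.6 to 187.2 CPM, of which Mmp8 made up the most. Ly6g, which defines neutrophils, had no count in any library. Since these are bulk samples, fewer cells of a type and less RNA per cell cannot be told apart.

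Macrophages given corpses had less mRNA for the β2 chain, for its partners αM and αX and for α4, and slightly more for α5 and αL. Itgax changed by −27.1% with STC1OE and −30.6% with control corpses, and Itga5 was higher by 20.2% and 14.5%. With STC1OE corpses, 5 of the 9 genes fell and 2 rose against macrophages alone, while 43.8% of all tested genes changed in that comparison (21.4% higher, 22.4% lower). With control corpses 6 fell and 2 rose, while 40.1% of all tested genes changed (19.7% higher, 20.5% lower). The comparisons share the libraries of macrophages alone. The median size was ordinary for these data. The median absolute log2 change of the 9 genes was 0.21 with STC1OE and 0.20 with control corpses. Over all tested genes it was 0.19 and 0.17. Single genes lay on both sides. The change of Itgax was larger than that of 82.5% and 89.1% of tested genes, and that of Itgam than 81.0% and 85.8%. That of Itgb1 was larger than 12.1% and 21.9%, and that of Itgb7 than 6.02% and 25.9%. The median signed changes of the 9 genes were −0.06 and −0.09, beside −0.03 and −0.00096 over all tested genes.

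**Figure D1:**
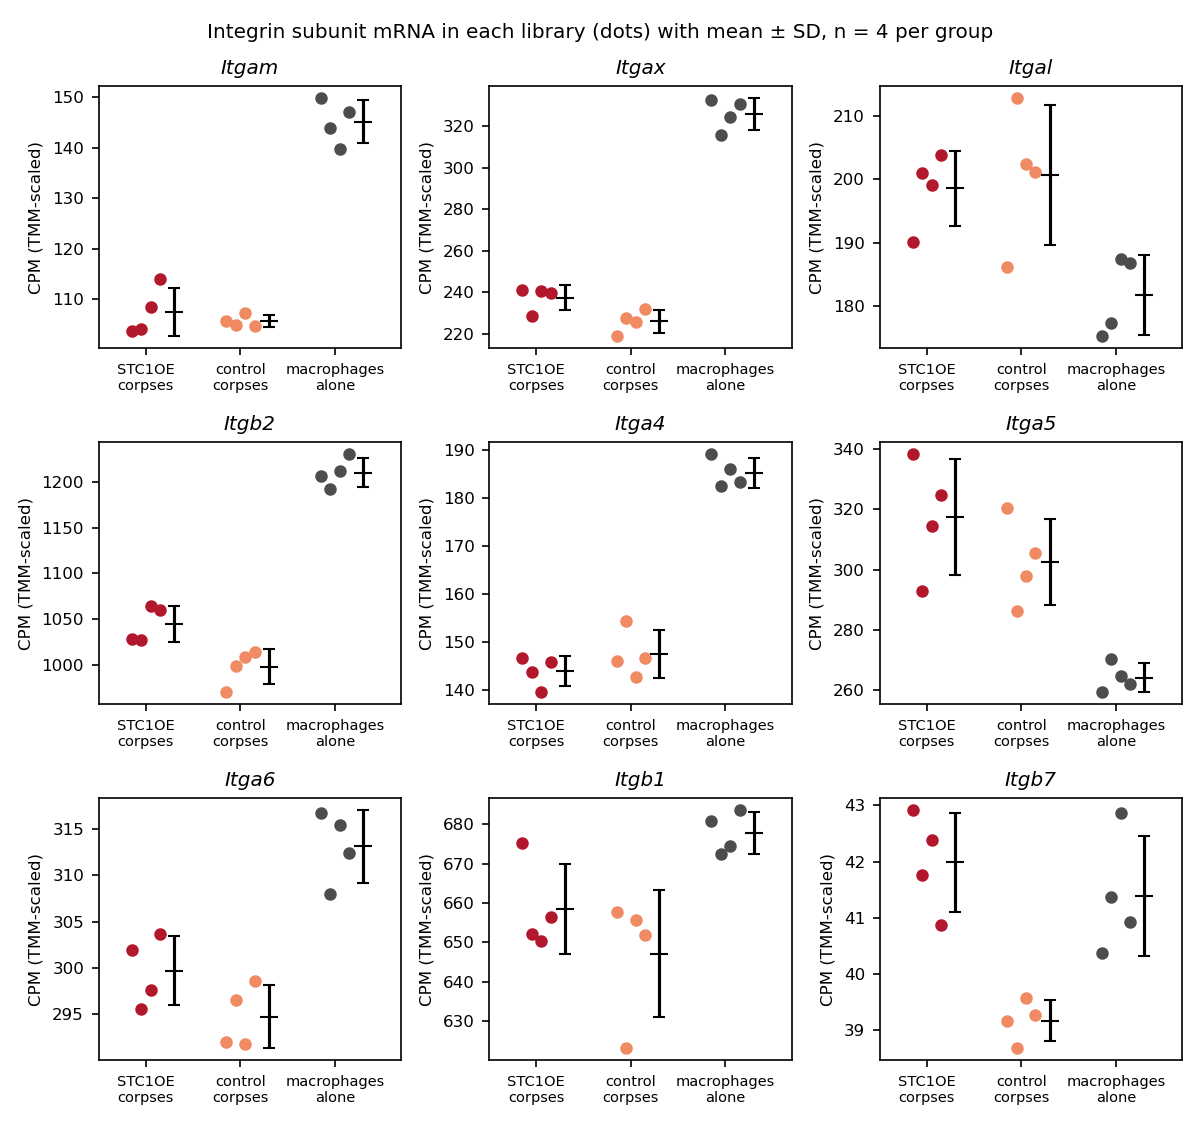
CPM of the 9 integrin genes in each library (dots), by group from left to right, with mean ± SD (n = 4) at the right of each group. The vertical axes differ and do not start at 0; for Itgam, Itgax, Itgb2, Itga4 and Itga6 every corpse library lies below every library of macrophages alone, and for Itga5 every one lies above.

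Among the β2 family, Itgax fell most. It stood at 241.4, 228.4, 240.5 and 239.9 CPM with STC1OE corpses, at 219.0, 227.8, 225.7 and 231.9 CPM with control corpses and at 332.7, 315.8, 324.2 and 330.8 CPM in macrophages alone. All corpse libraries lay far below the libraries without corpses, while the ranges of the corpse groups overlapped. The log2 fold change was −0.46 ± 0.03 with STC1OE corpses (adjusted p = 2.17e-15 by edgeR) and −0.53 ± 0.03 with control corpses (adjusted p = 8.13e-17 by edgeR). Itgax is also widely used as a marker of dendritic cells. Of 7 dendritic cell markers 4 were tested, with summed levels of 5.74 to 6.46, 4.95 to 6.92 and 6.70 to 8.30 CPM over the 7 in the order above; 2 of the 4 fell in each corpse comparison. Of these 2, Clec9a passed the low-count filter through macrophages alone. It reached at most 0.236 CPM with STC1OE and 0.237 CPM with control corpses. Its direction was fixed by the filter and is no support for a fall. The share of all tested genes that changed was 43.8% with STC1OE and 40.1% with control corpses. The part of dendritic cell transcripts in the fall of Itgax was not tested.

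Itgam, the α chain of Mac-1, had 103.6, 104.0, 108.4 and 113.9 CPM with STC1OE corpses, 105.7, 104.9, 107.3 and 104.8 CPM with control corpses, and 149.9, 143.9, 139.9 and 147.2 CPM in macrophages alone. No corpse library reached the level of a library without corpses. The change was −0.43 ± 0.03 with STC1OE corpses (adjusted p = 2.11e-13 by edgeR) and −0.46 ± 0.03 with control corpses (adjusted p = 6.29e-14 by edgeR). These counts may cover only part of the transcript. In GENCODE M21 the gene model Gm49368 runs through Itgam on the same strand and shares 3450 of its 5024 exonic bases (68.7%), and HTSeq by default counts a read that fits more than 1 gene for none. Gm49368 itself had at most 0.174 CPM, and 5.53% to 6.62% of reads per library were ambiguous. Neither the annotation release nor the overlap setting is stated, and the part of this overlap in the level of Itgam was not tested.

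Itgb2, the shared β chain, had 1029, 1028, 1064 and 1060 CPM with STC1OE corpses, 970.6, 999.5, 1009 and 1014 CPM with control corpses, and 1206, 1192, 1211 and 1230 CPM in macrophages alone. The 3 groups did not overlap, with macrophages alone highest and control corpses lowest. The fall was −0.21 ± 0.02 with STC1OE corpses (adjusted p = 8.39e-09 by edgeR) and −0.28 ± 0.02 with control corpses (adjusted p = 3.22e-11 by edgeR). Itgal, the α chain of LFA-1, went the other way. It had 190.2, 200.9, 199.2 and 203.9 CPM with STC1OE corpses, 186.1, 212.8, 202.4 and 201.1 CPM with control corpses, and 175.3, 177.4, 187.4 and 186.8 CPM in macrophages alone. The lowest control corpse library lay inside the range of macrophages alone, whereas the STC1OE group lay wholly above it. Itgal rose by 0.13 ± 0.03 with STC1OE corpses (adjusted p = 0.00341 by edgeR) and by 0.14 ± 0.03 with control corpses (adjusted p = 0.0014 by edgeR). LFA-1 is a lymphocyte integrin as well. The 8 T and NK cell markers summed to at most 0.370, 0.489 and 0.735 CPM in the 3 groups and none passed the filter; their part in the level of Itgal was not tested. All 6 neutrophil markers tested fell in both corpse comparisons, S100a9 standing at 0.396 ± 0.124 CPM with STC1OE corpses, 0.513 ± 0.166 CPM with control corpses and 4.17 ± 0.454 CPM in macrophages alone. Of the 6, Ltf and Cxcr2 passed the low-count filter through macrophages alone. They reached at most 0.185 and 0.309 CPM with STC1OE corpses and 0.364 and 0.252 CPM with control corpses. Their direction was set by the filter and is no support for a fall. Neutrophils also carry Mac-1 and LFA-1, and the part of neutrophil transcripts in the changes of Itgam, Itgal and Itgb2 was not tested.

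Of the β1 partners, α4 fell and α5 rose. Itga4 had 146.7, 143.8, 139.6 and 145.8 CPM with STC1OE corpses, 146.01, 154.4, 142.7 and 146.8 CPM with control corpses, and 189.2, 182.5, 186.0 and 183.2 CPM in macrophages alone. The corpse groups overlapped each other and lay below macrophages alone. The change was −0.36 ± 0.03 with STC1OE corpses (adjusted p = 1.23e-12 by edgeR) and −0.33 ± 0.03 with control corpses (adjusted p = 1.31e-11 by edgeR). Cerkl lies across 1124 exonic bases of Itga4 (8.04%) on the other strand and had 0.502 to 1.22 CPM.

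Itga5, the fibronectin receptor chain, had 338.4, 292.8, 314.5 and 324.6 CPM in replicates 1 to 4 with STC1OE corpses, 320.6, 286.2, 298.0 and 305.5 CPM in those with control corpses, and 259.4, 270.5, 264.8 and 262.2 CPM in macrophages alone. Every corpse library lay above every library without corpses, and the spread was wider with corpses, with replicate 1 highest and replicate 2 lowest in each corpse group. Itga5 rose by 0.27 ± 0.04 with STC1OE corpses (adjusted p = 1.7e-05 by edgeR) and by 0.20 ± 0.04 with control corpses (adjusted p = 0.00046 by edgeR). Melanoma cells can carry β1 integrins too. Of 9 melanocyte markers tested, 7 rose with STC1OE and 8 with control corpses. Between the corpse groups 6 were lower and 1 higher with STC1OE corpses, and 2 were not called. Tyrp1, a pigment enzyme and one of the lower ones, was at 1.05 ± 0.2 CPM with STC1OE corpses, 4.09 ± 0.642 CPM with control corpses and 0.0313 ± 0.0233 CPM in macrophages alone. The higher one was the endothelin receptor Ednrb, at 4.27, 3.18 and 0.826 CPM in the same order; this call (0.43, adjusted p = 0.0405 by edgeR) was lost without replicate 1, 3 or 4 of control corpses or 2, 3 or 4 of STC1OE corpses (0.36 to 0.49 over the 12 omissions, adjusted p up to 0.144). Of these markers Mlana, Tyr and Slc45a2 passed the low-count filter through the control corpse group. With STC1OE corpses they reached at most 0.185, 0.123 and 0.199 CPM. Their higher level with control corpses was therefore fixed by the filter and is no support, though their calls are counted above. The part of corpse RNA in the level of Itga5 was not tested.

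The remaining 3 genes moved little. Itga6, the laminin receptor chain, had 302.0, 295.5, 297.6 and 303.7 CPM with STC1OE corpses, 292.0, 296.5, 291.7 and 298.6 CPM with control corpses, and 316.8, 308.0, 315.5 and 312.4 CPM in macrophages alone. All corpse libraries were lower, with a change of −0.06 ± 0.02 with STC1OE corpses (adjusted p = 0.0245 by edgeR) and −0.09 ± 0.02 with control corpses (adjusted p = 0.00232 by edgeR). The first of these calls was fragile. It was lost without any 1 of 8 libraries, namely replicates 1 and 3 of macrophages alone, 2 and 3 of the control corpse group and each of the STC1OE group, with changes of −0.071 to −0.046 over the 12 omissions and adjusted p up to 0.157 by edgeR; it was also lost by DESeq2 (adjusted p = 0.0641).

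Itgb1 had 675.1, 652.1, 650.3 and 656.5 CPM with STC1OE corpses, 657.6, 623.1, 655.7 and 651.9 CPM with control corpses, and 680.9, 672.3, 674.4 and 683.6 CPM in macrophages alone. The control corpse libraries all lay below macrophages alone, whereas the STC1OE group overlapped it. The change with control corpses was −0.07 ± 0.02 (adjusted p = 0.0234 by edgeR). That call was lost without any 1 of 7 libraries, namely replicates 1 and 4 of macrophages alone, 2 and 3 of the control corpse group and 1, 2 and 3 of the STC1OE group, with changes of −0.075 to −0.038 and adjusted p up to 0.231 by edgeR. With STC1OE corpses the difference was −0.04 ± 0.02, with a 95% interval of −0.09 to 0.0067 (adjusted p = 0.159 by edgeR). Itgb7 had 42.9, 41.8, 42.4 and 40.9 CPM with STC1OE corpses, 39.2, 38.7, 39.6 and 39.3 CPM with control corpses, and 40.4, 41.4, 42.9 and 40.9 CPM in macrophages alone. The control corpse group lay just below the others, without a call against macrophages alone (−0.08 ± 0.03, 95% interval −0.15 to −0.01, adjusted p = 0.0629 by edgeR). With STC1OE corpses the difference was 0.02 ± 0.03, with a 95% interval of −0.05 to 0.09 (adjusted p = 0.673 by edgeR). Against macrophages alone, the groups did not overlap for 7 of the 9 genes with STC1OE corpses, where this held for 40.0% of all tested genes, and for 8 of 9 with control corpses, where it held for 37.2%.

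**Figure D2:**
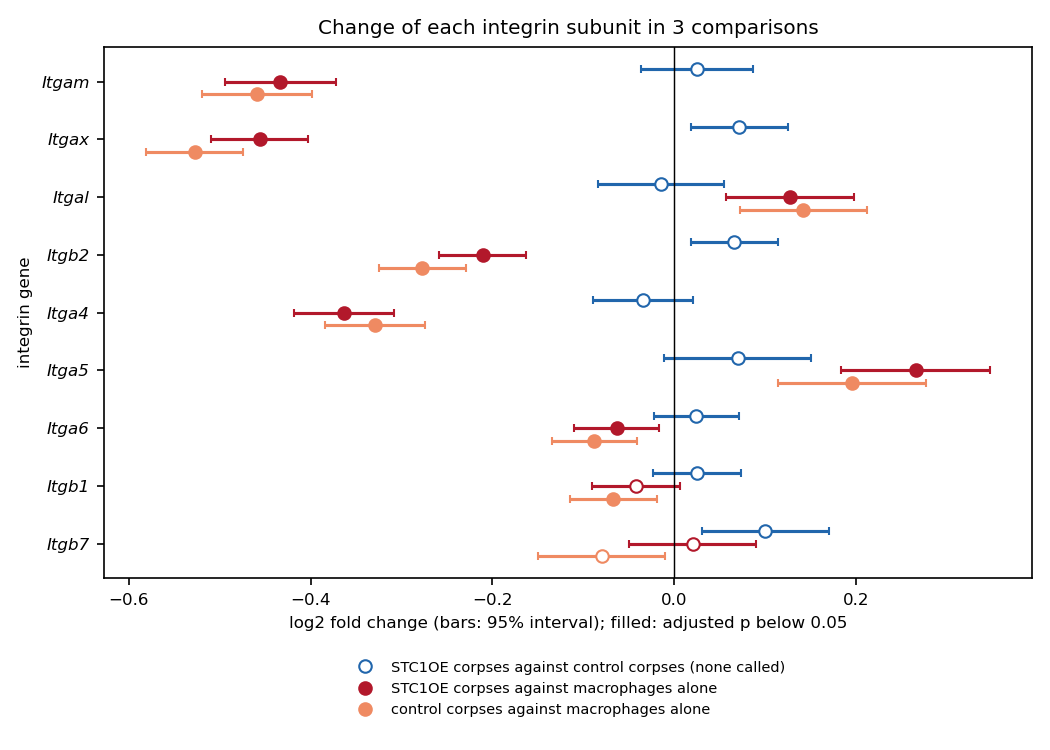
Log2 fold change of each integrin gene in the 3 comparisons with 95% intervals; filled points have an adjusted p below 0.05 by edgeR. The falls of Itgax, Itgam and Itga4 and the rise of Itga5 appear with either kind of corpse, and no gene was called between the corpse groups.

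The corpse groups were then compared with each other for these genes. Those groups also differed in melanocyte markers and in the share of reads not aligned. The part of STC1 cannot be told apart from such differences. None of the 9 integrins was called by edgeR, where 5.44% of all tested genes were (3.33% higher, 2.12% lower), and 3 had an unadjusted p below 0.05. DESeq2 called 1, Itgb2 (0.07, adjusted p = 0.0225). The log2 differences ran from −0.03 for Itga4 to 0.10 for Itgb7, and no 95% interval reached beyond −0.09 or 0.17. Itgb7 (0.10 ± 0.03, 95% interval 0.03 to 0.17, adjusted p = 0.0847 by edgeR) and Itgb2 (0.07 ± 0.02, 95% interval 0.02 to 0.11, adjusted p = 0.1 by edgeR) were the 2 genes whose groups did not overlap, with the STC1OE group higher; this held for 10.7% of all tested genes. Itgax differed by 0.07 ± 0.03 (95% interval 0.02 to 0.12, adjusted p = 0.109 by edgeR) and Itga5 by 0.07 ± 0.04 (95% interval −0.01 to 0.15, adjusted p = 0.344 by edgeR). Without replicate 2 of the STC1OE group Itga5 was called, at 0.11 (adjusted p = 0.0422 by edgeR). For Itgam, Itgal, Itga4, Itga6 and Itgb1 the interval held 0.

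Levels were compared between genes only per kilobase of exon in GENCODE M21, with the exons of all transcripts of a gene merged. A single transcript can be shorter than this length, so the order of the genes depends on the choice of length. Itgb2 was the highest of the 9 in each group, at 342.5 ± 6.43 CPM per kb with STC1OE corpses, 327.2 ± 6.43 in the control corpse group and 396.4 ± 5.22 in macrophages alone, followed by Itgb1 at 161.4 ± 2.79, 158.6 ± 3.96 and 166.1 ± 1.31 CPM per kb. The next places changed hands. Itga5 lay above Itgax with corpses, at 64.4 ± 3.89 against 49.5 ± 1.27 CPM per kb with STC1OE and 61.3 ± 2.91 against 47.1 ± 1.12 with control corpses, whereas in macrophages alone Itga5 was at 53.6 ± 0.956 and Itgax at 67.8 ± 1.58. The ranges of these genes did not overlap in any group. Itga6 came next, at 33.2 ± 0.419, 32.7 ± 0.377 and 34.7 ± 0.436 CPM per kb. Itgal, at 30.2 ± 0.899 and 30.5 ± 1.68 CPM per kb with the 2 kinds of corpse and 27.7 ± 0.956 alone, overlapped Itga6 in its range with control corpses (28.3 to 32.4 against 32.3 to 33.1) and Itgam in macrophages alone (26.7 to 28.5 against 27.8 to 29.8). Itgam was at 21.4 ± 0.957, 21.0 ± 0.228 and 28.9 ± 0.862 CPM per kb over all its exons. Dividing all its counts by the 1.574 kb not shared with Gm49368 gave 68.3 ± 3.05, 67.1 ± 0.727 and 92.3 ± 2.75. These values exceed the means of Itga5 and Itgax in each group. They assume that no read from the shared exons was counted for Itgam. They are not a strict upper bound, since reads that span shared and unshared exons may have been left out too. Itgb7, at 15.2 ± 0.319, 14.1 ± 0.133 and 14.9 ± 0.386 CPM per kb, and Itga4, whose exons span 13.978 kb, at 10.3 ± 0.225, 10.6 ± 0.355 and 13.3 ± 0.217, were lowest.

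**Figure D3:**
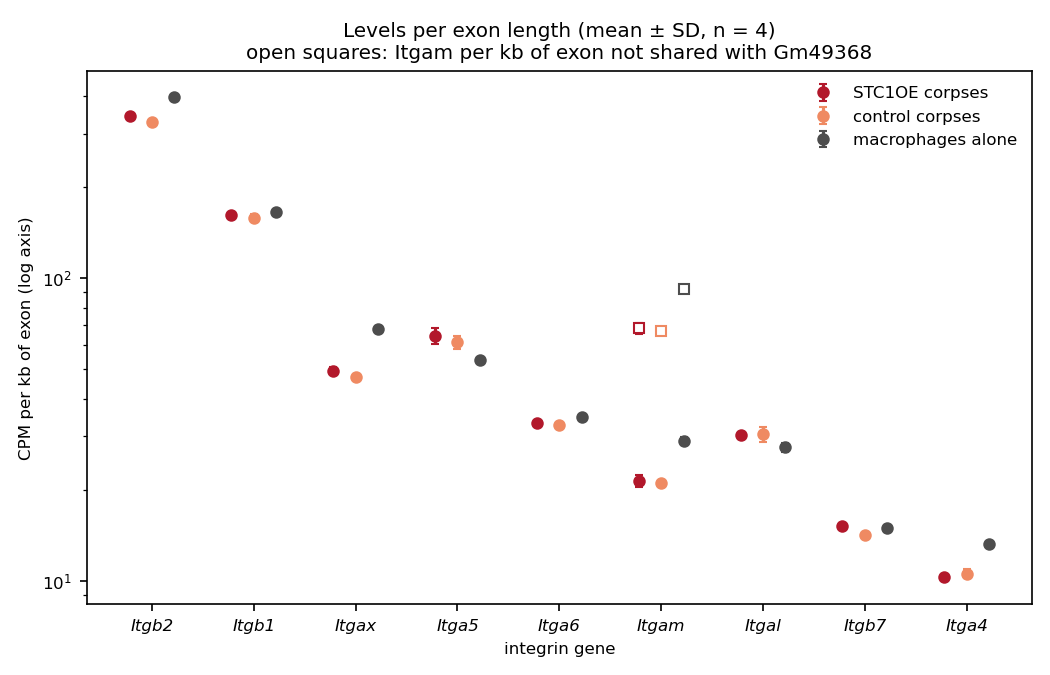
Level of each gene in CPM per kb of exon on a log axis (mean ± SD, n = 4 per group). Open squares divide all counts of Itgam by its exon length outside Gm49368, on the assumption that no read from the shared exons was counted. Itgb2 and Itgb1 stand highest, and Itgax lies below Itga5 with either kind of corpse but above it in macrophages alone.

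The other 17 integrin subunits give the setting of these changes. Of them 14 were tested. With STC1OE corpses 1 rose and 7 fell, and with control corpses 1 rose and 7 fell. Of all tested genes, 43.8% and 40.1% changed in these comparisons. Itgb3, the chain that pairs with αV to bind vitronectin, was the 1 integrin called between the corpse groups. It had 30.3, 36.5, 34.5 and 36.9 CPM with STC1OE corpses, 24.3, 28.4, 24.3 and 27.1 CPM with control corpses, and 30.2, 27.8, 29.6 and 30.2 CPM in macrophages alone. The STC1OE group lay wholly above the control corpse group (0.41 ± 0.06, adjusted p = 0.000398 by edgeR). Against macrophages alone Itgb3 rose by 0.23 ± 0.06 with STC1OE corpses (adjusted p = 0.00375 by edgeR) and fell by 0.18 with control corpses (adjusted p = 0.0234 by edgeR). The fall was lost without replicate 1, 3 or 4 of macrophages alone or 1 or 3 of control corpses, with changes of −0.21 to −0.14 over the 12 omissions and adjusted p up to 0.0996 by edgeR.

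Itgav, its α partner, was at 441.3 ± 20.2 CPM with STC1OE corpses, 467.0 ± 7.07 CPM with control corpses and 426.2 ± 7.63 CPM in macrophages alone, and rose with control corpses (0.13 ± 0.03, adjusted p = 0.000191 by edgeR). Itgb5, which also pairs with αV, fell by 0.14 with STC1OE and by 0.16 with control corpses to 400.5 ± 15.5 and 397.4 ± 20.1 CPM, against 442.6 ± 23.2 CPM in macrophages alone; the first call ended on omitting replicate 1 of STC1OE corpses (−0.11, adjusted p = 0.0537 by edgeR). Itgae, the β7 partner that binds E-cadherin, was low, at 1.93 ± 0.174, 2.26 ± 0.308 and 2.72 ± 0.413 CPM, and fell with STC1OE corpses (−0.49 ± 0.14, adjusted p = 0.00513 by edgeR). Itga9, a further β1 partner, was not called in any comparison, at 34.6 ± 1.71, 35.5 ± 1.07 and 36.1 ± 1.03 CPM. The other calls were of 5 subunits with a mean below 2 CPM over the 12 libraries, Itga1, Itga2b, Itga8, Itgad and Itgb8, which were named after their values were seen. They fell with either kind of corpse, by log2 changes of −1.52 to −0.86 with STC1OE and −1.89 to −0.79 with control corpses. Itgb8 was near the floor, with 25, 30 and 71 counts in all with STC1OE corpses, control corpses and in macrophages alone. It reached at most 0.292 and 0.298 CPM in a corpse library. It passed the low-count filter through the group of macrophages alone, so its direction was fixed by the filter and is no support for a fall. Its call is counted in the falls given above. Itga2b was little higher, with 42, 36 and 122 counts in the same order. Itgad, at 0.777 ± 0.16, 0.728 ± 0.0992 and 1.42 ± 0.19 CPM, is the αD partner of β2 and the next integrin downstream of Itgax.

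Among 22 genes of integrin ligands, 15 were tested. With STC1OE corpses 3 rose and 5 fell, and with control corpses 3 rose and 6 fell. Of all tested genes, 43.8% and 40.1% changed in these comparisons. Thbs1, the matrix protein thrombospondin-1, fell most, to 91.6 ± 4.61 CPM with STC1OE and 83.0 ± 8.26 CPM with control corpses, against 209.6 ± 15.3 CPM in macrophages alone (−1.19 ± 0.08 and −1.34 ± 0.08). Col18a1, a basement membrane collagen, stood at 89.3 ± 1.3, 86.6 ± 3.89 and 128.4 ± 2.14 CPM in the same order. Tgm2, a transglutaminase that binds fibronectin and β1 and β3 integrins at the cell surface, rose to 176.5 ± 13.6 CPM with STC1OE and 163.1 ± 6.74 CPM with control corpses, against 112.9 ± 2.98 CPM in macrophages alone. Icam1 and Vcam1, partners of the 9 integrins, were named after their values were seen. Icam1, a ligand of LFA-1 and Mac-1, fell to 46.5 ± 1.02 and 44.5 ± 3.02 CPM, against 53.0 ± 1.8 CPM in macrophages alone. Vcam1, the cell-bound ligand of α4β1, was at 12.03 ± 0.404, 12.1 ± 0.415 and 12.2 ± 0.67 CPM, without a call. Between the corpse groups 1 ligand was called, Lamc1, a laminin chain (0.11 ± 0.03, adjusted p = 0.0213 by edgeR), a call that ended on omitting replicate 1 of control corpses (0.098, adjusted p = 0.0863) or replicate 4 of STC1OE corpses (0.10, adjusted p = 0.081).

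Of 38 genes that activate integrins or link them to the cytoskeleton, 35 were tested. With STC1OE corpses 12 rose and 12 fell, and with control corpses 6 rose and 16 fell. Of all tested genes, 43.8% and 40.1% changed in these comparisons. Cytip, which binds cytohesin-1 and restrains LFA-1 adhesion in lymphoid cells, fell far more than any of the 9 integrins, to 11.1 ± 0.801 CPM with STC1OE and 12.1 ± 0.369 CPM with control corpses, against 44.8 ± 1.25 CPM in macrophages alone (−2.01 ± 0.05 and −1.89 ± 0.05). Kinases that signal from β2 integrins did not move as one. Src and Fgr fell, and Lyn was not called. Src was at 9.69 ± 0.751, 9.56 ± 0.155 and 14.9 ± 0.718 CPM, and Fgr at 13.4 ± 0.987, 13.02 ± 0.463 and 18.8 ± 1.54 CPM. Lyn differed by 0.03 (adjusted p = 0.395) and −0.01 (adjusted p = 0.691 by edgeR). Syk, which acts below β2 integrins, rose with STC1OE (0.32, adjusted p = 4.79e-12 by edgeR) and control corpses (0.23, adjusted p = 1.01e-08 by edgeR), at 693.0, 649.1 and 554.5 CPM. Lyn and Syk were named after their values were seen. Between the corpse groups 5.44% of all tested genes were called. In this list 4 were higher with STC1OE than with control corpses: Parvb (0.11 ± 0.03), Ptk2b (0.10 ± 0.02), Pxn (0.10 ± 0.03) and Syk (0.09 ± 0.03). The first 3 encode the adaptor β-parvin, the kinase Pyk2 and paxillin; the 4 had adjusted p of 0.0263, 0.0109, 0.0472 and 0.0228 by edgeR. Omitting 1 library ended the call of Pxn in 10 of 12 cases (all but replicate 1 of macrophages alone and replicate 1 of the STC1OE group; 0.076 to 0.12). It ended that of Parvb without replicates 1, 3 or 4 of the control corpse group or 3 or 4 of the STC1OE group (adjusted p up to 0.134), that of Syk without replicates 1 or 3 of the control corpse group or 2, 3 or 4 of the STC1OE group (0.077 to 0.11, adjusted p up to 0.0969), and that of Ptk2b without replicate 3 of the STC1OE group (adjusted p = 0.0509).

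Ilk, the integrin-linked kinase, was listed at no more than 0.13 CPM in any library, and was singled out after its values were seen. In GENCODE M21, 2461 of its 2744 exonic bases (89.7%) lie opposite other genes, mainly Taf10, which had 52.3 to 64.5 CPM. The value says little about Ilk itself, since whether counting used strand is not stated.

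**Figure D4:**
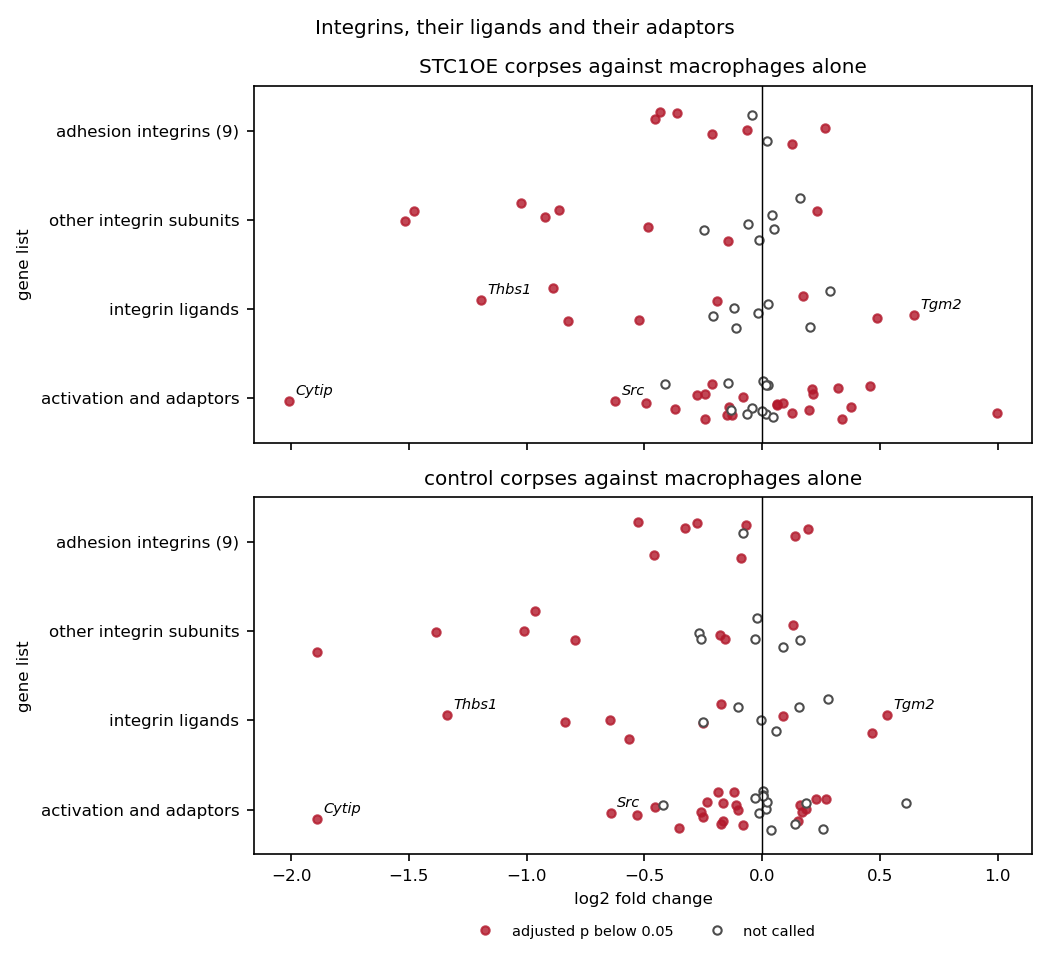
Log2 fold change of each tested gene in the 4 lists with STC1OE corpses (top) and control corpses (bottom), both against macrophages alone; filled points have an adjusted p below 0.05 by edgeR, and vertical position within a list has no meaning. The 9 adhesion integrins lie between −0.53 and 0.27, while Cytip and Thbs1 fell by more.

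Across the 12 libraries, the genes whose log2 CPM ran most like each integrin were sought among 8002 genes of at least 10 CPM. These correlations describe 3 group levels as much as single libraries. Itgam ran most like Cast (Pearson r = 0.992) and Bcl2l11 (0.992), Itgax like Atf3 (0.991) and Ppp3ca (0.989), Itgb2 like Myo1c (0.992) and Cnr2 (0.990), and Itga4 like Crebrf (0.993) and Fyn (0.992). Itga5 ran most like Sept11 (0.973) and Drg2 (0.971), and Itgal like Abcd2 (0.952) and Uhrf1bp1 (0.951). Itga6 ran most like Ensa (0.962) and Dapk1 (0.958), and Itgb1 like Flna (0.981) and Slc37a4 (0.941). Itgb7 had the weakest matches, Nfkb2 (0.882) and Srxn1 (0.869). Nfkb2 shared its dip with control corpses, at 68.2 CPM with STC1OE corpses, 59.7 CPM with control corpses and 69.9 CPM in macrophages alone.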

How the data were processed

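RNA was sequenced in 3 groups of 4 libraries, grouped and numbered as the titles say. The authors deposited unnormalized counts for every gene and library. The submitters' processing notes name HISAT2, HTSeq and DESeq2 and mm10 and GRCm38, with no versions. Lines that name no gene were left out. They held 10.6% to 14.7% (no feature), 5.53% to 6.62% (ambiguous), 5.17% to 5.85% (low quality), 10.8% to 17.8% (not aligned) and 5.74% to 7.03% (not unique) of reads. The share not aligned differed by group, at 14.4% to 17.8% with STC1OE corpses, 10.8% to 11.5% with control corpses and 11.4% to 14.0% alone. Replicates 3 and 4 of the STC1OE group were highest, at 17.8% and 17.5%. The part of this difference in the results was not tested. Symbols matched 54723 of 55604 identifiers; coordinates and exon lengths are those of GENCODE M21 (GRCm38).

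Counts were fitted in R 4.3.3 with edgeR 4.0.16: filterByExpr (minimum count 10, minimum total 15), TMM factors, and robust quasi-likelihood fits over all 12 libraries, two-sided. DESeq2 1.42.0, other scalings, no filter, fewer libraries and a replicate term were alternatives. The steps were tested on simulated data. Replicates differed by more than sampling noise (chi-square per degree of freedom 2.73 to 17.1); replicates 1 and 2, and 3 and 4, were closer to each other in macrophages alone and the STC1OE group. P-values measure the spread between these libraries. Intervals of log2 changes come from the fit. The members and lists were chosen with earlier results of these data known. Named were all 9 integrins, other subunits of at least 2 CPM, and, per list other than the markers and per comparison, up to 3 called genes of at least 2 CPM with the greatest change; called genes under 2 CPM (Cdh1, F11r and Fermt2 among them) are thereby left out. Marker genes were named after their values were seen; other exceptions are stated. B cell, mast cell and platelet marker lists were also summed: 1.73 to 2.17, 2.04 to 2.49 and 2.31 to 2.69 CPM, 1.56 to 1.97, 1.99 to 2.23 and 2.14 to 3.45 CPM, and 104.7 to 115.2, 112.3 to 127.3 and 133.2 to 141.3 CPM with STC1OE corpses, control corpses and in macrophages alone.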

Additional observations from a re-analysis of the deposited data

Results flagged for a closer look

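Among 27 sets of 4 libraries (9 genes in 3 groups), 2 held a library that stood apart from the other 3; chance alone gives about 1 in 20. Itgax in replicate 2 of the STC1OE group was low, at 228.4 CPM, while the other 3 libraries lay between 239.9 and 241.4 CPM. Without it the change against macrophages alone was −0.43 (adjusted p = 1.58e-14 by edgeR), and the difference from control corpses was 0.09 (adjusted p = 0.0529 by edgeR). Itgb1 in replicate 2 of the control corpse group was low, at 623.1 CPM, while the others lay between 651.9 and 657.6 CPM. Without it the change of Itgb1 against macrophages alone was −0.04 and was not called (adjusted p = 0.231 by edgeR).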

How the results depend on the processing

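Over 21 alternatives, 532 of 567 values of the 9 integrins kept their direction and their side of the threshold, 26 lost a call, 4 gained one and 5 changed sign. With replicates 1 and 2 alone 5 integrins were called with control corpses, and 4650, 4090 and 33 genes were called in all with STC1OE corpses, with control corpses and between the corpse groups, where all libraries gave 7186, 6582 and 893. With replicates 3 and 4 alone 1925 genes and 2 integrins (Itgb2 and Itga5) were called between the corpse groups, and DESeq2 called 1 integrin; the cause was not tested. Omitting 1 library gave 6 to 7 integrins with STC1OE corpses (6646 to 7307 genes), 7 to 8 with control corpses (6016 to 6749) and 0 to 1 between the corpse groups (474 to 1200), the last count falling to 474 or 486 without replicate 3 or 4 of STC1OE corpses and to 561 or 529 without replicate 1 or 3 of control corpses. Signs changed for uncalled values: Itgb7 with STC1OE corpses (−0.0096) and Itgb1 between the corpse groups (−0.00034) with replicates 3 and 4 alone, Itgam (−0.018) with replicates 1 and 2 alone, and Itgal between the corpse groups without replicate 2 of control corpses (0.014) or replicate 1 of STC1OE corpses (0.0047), within −0.049 to 0.014 over the omissions. With a replicate block 7, 8 and 0 integrins and 7300, 6712 and 1089 genes were called in the same order of comparisons. Same-numbered libraries correlated at −0.13 to 0.166, and 9 of 24 checks matched a library best to its own number. These checks are too weak to settle whether the numbers pair libraries. Of 1071 values of other named genes, for 51 called differences, 1003 kept their call and 68 lost it. Genes named outside the rule were added after seeing the data. The named markers Tyrp1, S100a9 and Mmp8 were not among these genes.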
